A study of Homo sapiens with 3 samples.

Results

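Vault RNAs were examined among the RNAs bound by DIS3L2, the exoribonuclease that removes RNAs with an untemplated oligo(U) tail. They were taken as the rows of the deposited table whose gene name starts with VTRNA, which gave 4 windows of 50 nt in 3 genes, VTRNA1-1, VTRNA1-2 and VTRNA1-3, out of 1533 windows in all. The cells were HEK293, a human embryonic kidney line, and they overexpressed DIS3L2 D391N, a mutant that binds RNA but lacks catalytic activity. RNAs were crosslinked to the protein with UV light and recovered by CLIP through its FLAG tag from 3 replicate libraries. These form 1 group, since a control group was not analysed here, and the cDNA was integrated in the HEK293T-Rex derivative and switched on with an inducible promoter, so the protein level was not the endogenous one. Each window has 2 counts, the uniquely mapped reads and, among them, the U+ reads. The authors called a read U+ if it ended in at least 4 T that they judged untemplated, with 1 mismatch allowed. For RNAs made by RNA polymerase III, which end in encoded uridines, the study states that its data do not separate added from encoded terminal U. It adds that U stretches on these RNAs were rarely longer than the encoded ones. A U+ read of a vault RNA is therefore a read called U+ and not proof of an added tail. The authors added up the replicates before deposit. Depth per library and replicate spread are therefore unknown, and whether the libraries came from separate cultures is not given in the sources used here. The intervals below are at 95%. They are Wilson intervals for fractions, Newcombe intervals for differences and, for ratios of counts, exact binomial intervals given the sum of the counts. They cover counting error only, as if each read were an independent molecule. Copies made by PCR are not, so the intervals may be too narrow. They also say nothing of the variation between cultures.

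Vault RNAs are short non-coding RNAs made by RNA polymerase III. They were named for the vault, a large hollow ribonucleoprotein particle of the cytoplasm built mainly from the major vault protein, although most vault RNA in a cell is found outside it. Their promoter lies inside the gene, as in tRNA genes, in 2 short elements called box A and box B, and transcription stops in a run of encoded T. The new RNA thus ends in templated uridines, which the La protein binds. In the DIS3L2 pathway, terminal uridyltransferases such as TUT4 and TUT7 add further uridines that are not in the genome, and DIS3L2 degrades the tailed RNA from its 3′ end. With the D391N mutant as bait, tailed RNAs are held and not degraded.

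The 3 genes lie head to tail on the plus strand of chromosome 5 (GRCh37/hg19), within a span of 14972 nt that 0 other listed windows overlapped. Each has 1 exon in the annotation. VTRNA1-1 (ENSG00000199990) covers chr5:140090860-140090958, VTRNA1-2 (ENSG00000202111) covers chr5:140098510-140098598 and VTRNA1-3 (ENSG00000202515) covers chr5:140105743-140105831, with lengths of 99, 89 and 89 nt. Their sequences are shown because the reads were assigned between close relatives. They are given as DNA from 5′ to 3′, and the capitals mark box A, then box B.
VTRNA1-1: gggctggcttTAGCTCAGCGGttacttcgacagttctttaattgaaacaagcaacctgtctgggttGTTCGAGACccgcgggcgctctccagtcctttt
VTRNA1-2: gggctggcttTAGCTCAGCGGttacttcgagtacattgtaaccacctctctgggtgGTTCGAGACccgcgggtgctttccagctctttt
VTRNA1-3: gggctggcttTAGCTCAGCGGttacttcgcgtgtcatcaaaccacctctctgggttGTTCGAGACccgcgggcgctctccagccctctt

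The first 29 nt were identical in the 3 genes. In global alignments, VTRNA1-1 and VTRNA1-2 were identical in 81 of 99 columns (81.8%), VTRNA1-1 and VTRNA1-3 in 83 of 100 (83.0%), and VTRNA1-2 and VTRNA1-3 in 79 of 90 (87.8%). The middle of the RNA differed most, and VTRNA1-1 is longer there. VTRNA1-1 and VTRNA1-3 also shared an identical run of 34 nt that holds box B, at positions 59 to 92 of the first gene and 49 to 82 of the other. The genes differed at the 3′ end, where VTRNA1-1 and VTRNA1-2 close with a run of 4 encoded T. VTRNA1-3 has ctctt there, and its next run of at least 4 T ended 68 nt past the annotated gene.

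VTRNA1-1 had 2 adjoining windows, VTRNA1-2 and VTRNA1-3 had 1 each, and all of them lay in the 3′ part of the gene or across its end. Box A was in no listed window. The first VTRNA1-1 window, chr5:140090900-140090949, covered positions 41 to 90 and stopped 9 nt before the annotated 3′ end. The other one, chr5:140090950-140090999, held the last 9 nt of the gene and 41 nt past it. The VTRNA1-2 window, chr5:140098550-140098599, covered positions 41 to 89 and 1 nt past the end. The VTRNA1-3 window, chr5:140105800-140105849, covered positions 58 to 89 and 18 nt past the end. Thus 3 of the 4 windows held the annotated 3′ end, as did 33 (60%) of the 55 other misc_RNA windows with an annotated transcript. The 3 windows with the 3′ end are shown with encoded runs of at least 4 T in capitals. The study states that it could not tell encoded from added terminal U in RNAs of this kind. The VTRNA1-3 window holds no such encoded run, and whether its U+ reads carry added tails was not tested.
VTRNA1-1, second window: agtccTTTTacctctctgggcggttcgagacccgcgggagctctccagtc
VTRNA1-2: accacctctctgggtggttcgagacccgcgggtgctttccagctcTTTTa
VTRNA1-3: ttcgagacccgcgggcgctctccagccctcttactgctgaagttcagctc

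**Figure D1:**
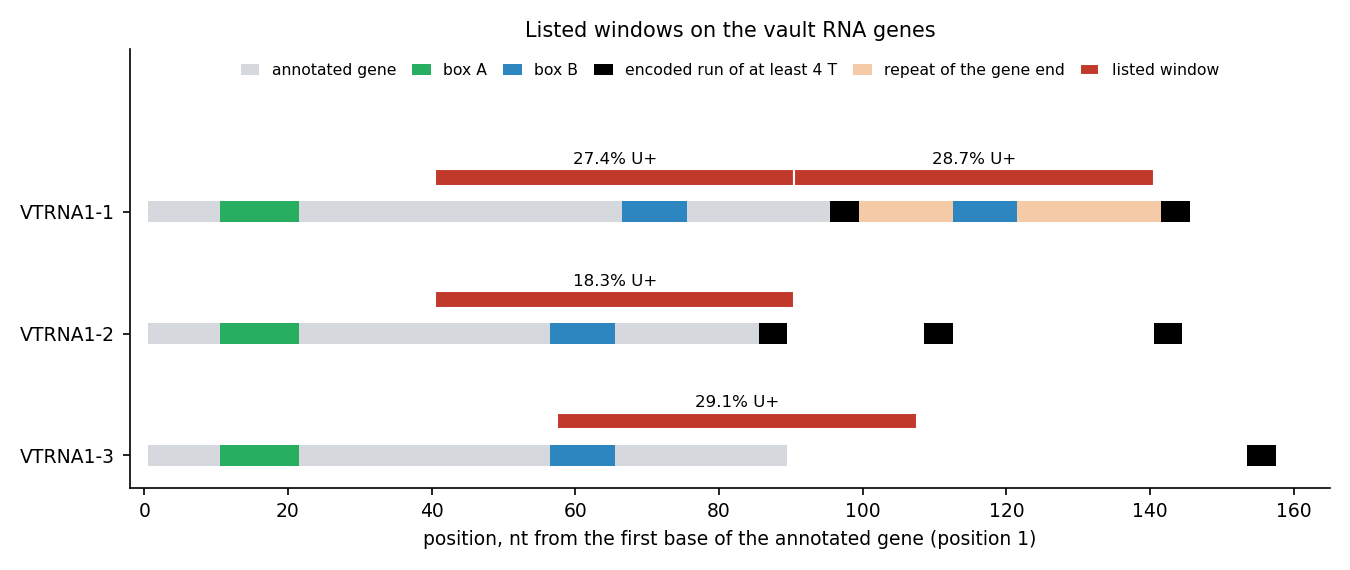
Positions of the listed windows (red) on the 3 vault RNA genes (grey), in nt from the first base of the gene, with box A (green), box B (blue), encoded runs of at least 4 T (black) and the repeat past VTRNA1-1 (orange). The windows started at position 41 in VTRNA1-1 and VTRNA1-2 and at position 58 in VTRNA1-3, so box A was outside all of them.

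The VTRNA1-1 windows gave the most U+ reads of the table. Its first window had 380097 unique reads, of which 104132 were uridylated and 275965 were not, a U+ fraction of 27.4% (interval 27.3 to 27.5%). The second window had 363024 unique reads, with 104016 uridylated and 259008 not, a U+ fraction of 28.7% (interval 28.5 to 28.8%). In U+ reads these ranked first and second among the 1533 windows.

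VTRNA1-2 had the vault RNA window with the most unique reads and the lowest U+ fraction. Its window had 413061 unique reads, of which 75430 were uridylated and 337631 were not, a U+ fraction of 18.3% (interval 18.1 to 18.4%). It was at place 2 of the table in unique reads and at place 3 in U+ reads. VTRNA1-3 was far less represented, with 42740 unique reads, of which 12422 were uridylated and 30318 were not. Its U+ fraction of 29.1% (interval 28.6 to 29.5%) was the highest of the 4 windows.

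**Figure D2:**
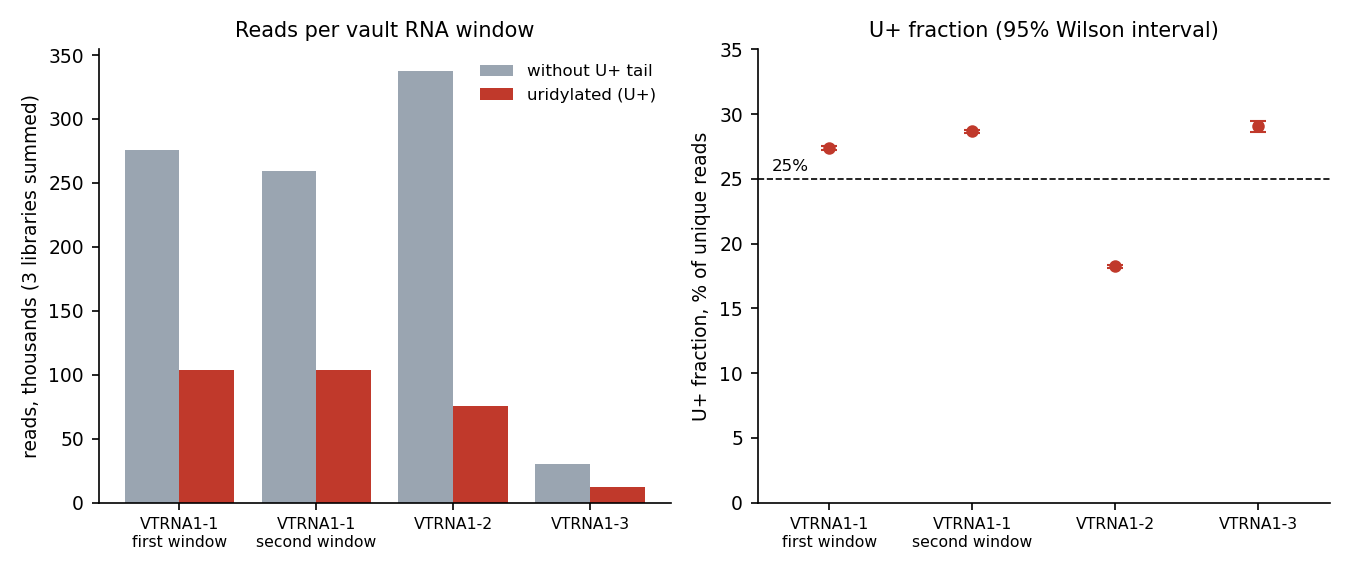
Left, reads without a U+ tail (grey) and U+ reads (red) in each vault RNA window, in units of 1000, summed over the 3 libraries; right, the U+ fraction as a percentage of unique reads with its 95% Wilson interval, and a dashed line at 25%. Of these windows, that of VTRNA1-2 had the most untailed reads (337631) but fewer U+ reads (75430) than either VTRNA1-1 window. It alone fell under the line.

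Genes were compared by the difference of their U+ fractions, with a Newcombe interval for counting error. No test was made, because the counts of the libraries were pooled. With 1 window for each gene, the one with the most U+ reads, the U+ fraction of VTRNA1-1 was 9.13 percentage points above that of VTRNA1-2 (interval 8.95 to 9.32). In these windows both counts differed. The first VTRNA1-1 window had 1.38 times the U+ reads of VTRNA1-2 (interval 1.37 to 1.39) and 0.817 times its untailed reads (interval 0.813 to 0.821). Over both of its windows, VTRNA1-1 had between 275965 and 534973 different untailed reads, so the order of the 2 genes in untailed reads is not known. Such counts also depend on the amount of each RNA, which was not analysed here. There were 4.48 untailed reads for each U+ read in VTRNA1-2, against 2.65 in VTRNA1-1 and 2.44 in VTRNA1-3.

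VTRNA1-3 exceeded VTRNA1-2 by 10.8 percentage points (interval 10.4 to 11.3). Against VTRNA1-1 the result depended on the window. VTRNA1-3 was 1.67 points above the first VTRNA1-1 window (interval 1.22 to 2.12), which stops short of the 3′ end. It was 0.41 points above the second one (interval -0.04 to 0.87), which holds the 3′ end as the VTRNA1-3 window does, and this difference was not detectable at this depth. The order of these windows in U+ fraction was thus different from their order in unique reads. VTRNA1-3 had 8.89 times fewer unique reads than the first window of VTRNA1-1 (interval 8.80 to 8.98), with a similar U+ fraction. VTRNA1-2 had 1.09 times as many as that window (interval 1.08 to 1.09), with a lower U+ fraction. Whether VTRNA1-2 had more reads than VTRNA1-1 as a gene is not known, since the windows of VTRNA1-1 cannot be added. Since the windows cover different stretches of each gene, a difference between genes and a difference between stretches cannot be told apart. This includes VTRNA1-1 and VTRNA1-2, whose windows both start at position 41 but that of VTRNA1-1 stops 9 nt before the 3′ end.

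The 2 windows of VTRNA1-1 cannot be added, because a read across their border can be counted in each. Their U+ reads differed by 116, or 0.111% of those in the first window. The untailed reads differed by 16957, or 6.14%. The first window therefore held at least 17073 unique reads that were not in the second, and the number of different reads in both lies between 380097 and 743121. For U+ reads these bounds are 104132 and 208148. Going from the first to the second window, the U+ fraction rose by 1.26 percentage points, and no interval is given because the windows are not independent.

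The stretch past VTRNA1-1 repeats the end of the gene. The last 46 nt of VTRNA1-1, positions 54 to 99, recur directly downstream at chr5:140090959-140091004 with 4 differences (91.3% identity), so that a further box B and a further run of 4 T follow the annotated end. Of this repeat, 41 nt lie in the second window, all of its part past the gene, and its run of T lies outside. Both are shown with the differing bases in capitals.
VTRNA1-1, positions 54 to 99: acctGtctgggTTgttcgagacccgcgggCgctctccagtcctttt
VTRNA1-1, repeat downstream: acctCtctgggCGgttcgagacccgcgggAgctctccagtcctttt

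VTRNA1-2 and VTRNA1-3 had no such repeat in the 100 nt past the gene, where the best ungapped match was 13 and 12 nt long. The counts alone do not separate reads from the gene, reads across its end and reads from the repeat. From read coverage, the study reports U+ reads of vault RNA downstream of the mature 3′ end and takes them as uridylated 3′-extended RNAs. The uniqueness of the windows in GRCh37 bears on this, since the authors kept uniquely mapped reads. In the first VTRNA1-1 window, 18 of 31 stretches of 20 nt (58.1%) occurred once in the genome, and in the second window 29 of 31 (93.5%). The value was 90.3% in VTRNA1-2 and 77.4% in VTRNA1-3. At 30 nt it was 85.7% in the first VTRNA1-1 window and 100% in the other 3 windows, and at 40 nt it was 100% in all 4. Stretches that were not unique occurred at 2 places. The lengths of the reads were not analysed here, and the part of mapping in the differences between windows was not tested.

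Vault RNAs had 4 of the 61 listed windows of the misc_RNA class but most of the reads in them. The class also holds Y RNAs and the RNAs of 7SL, 7SK, RNase P and RNase MRP. With 1 listed window for each gene, vault RNAs had 92.1% of the unique reads (835898 of 907906, interval 92.0 to 92.1%). They had 93.9% of the U+ reads (191984 of 204387, interval 93.8 to 94.0%). Reads of the class in windows that were not listed are not counted. Among the vault RNA genes, VTRNA1-1 had 54.2% of the U+ reads but 45.5% of the unique reads, VTRNA1-2 had 39.3 and 49.4%, and VTRNA1-3 had 6.47 and 5.11%. Pooled over the 3 genes, 23.0% of the reads were uridylated (interval 22.9 to 23.1%). The same pooled value of the other misc_RNA genes was 17.2% (interval 16.95 to 17.50%), and without RN7SL1, which gave most of their reads, it was 58.6% (interval 57.9 to 59.2%). The vault RNAs were thus above or below the pooled rest of the class depending on this 1 gene.

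Window by window, the vault RNAs lay at the low end of the listed windows of their class in U+ fraction. The study states that it listed windows by a rule on this same value, which asks a higher fraction of a shallow window. The ranks therefore hold among listed windows only. The deposited counts do not always meet this rule, since 36 listed windows had a pooled U+ fraction under its 25%. The 57 other misc_RNA windows, each in a gene of its own, had a median of 68.1%, an interquartile range of 55.5 to 80.9% and a range of 0.719 to 98.2%. Below VTRNA1-2 there were 2 of the 57, RN7SL1 and RN7SK, and below each of the other vault RNA windows there were 3, these and a Y RNA. The 47 windows annotated as Y RNA, in which genes and pseudogenes were not separated here, had a median of 68.1%. The median was 68.1% in the 33 other windows that hold the annotated 3′ end and 72.0% in the 22 that do not. Over all classes, the 1533 windows had a median of 70.2%, and between 22 and 45 of the 1529 outside the vault RNAs lay below a given vault RNA window (1.44 to 2.94%).

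Of the other misc_RNA windows, the 3 closest to the first VTRNA1-1 window in U+ fraction were a Y RNA window on chromosome 14 (ENSG00000200742) with 23 of 91 reads uridylated, or 25.3% (interval 17.5 to 35.1%), one on chromosome 2 (ENSG00000202382) with 77 of 224, or 34.4% (interval 28.5 to 40.8%), and RN7SK, the RNA that holds back the elongation factor P-TEFb, with 280 of 1673, or 16.7% (interval 15.0 to 18.6%). RN7SL1, the RNA of the signal recognition particle, was the deepest window of the class outside the vault RNAs, with 370 of 51465 reads uridylated, or 0.719% (interval 0.650 to 0.796%). VTRNA1-3, with 42740 reads, was close to it in depth and had 29.1%. After RN7SL1, the deepest were RN7SL529P with 57.2% of 2793 reads (interval 55.4 to 59.0%) and RMRP, the RNA of RNase MRP, with 46.2% of 2200 (interval 44.1 to 48.3%).

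**Figure D3:**
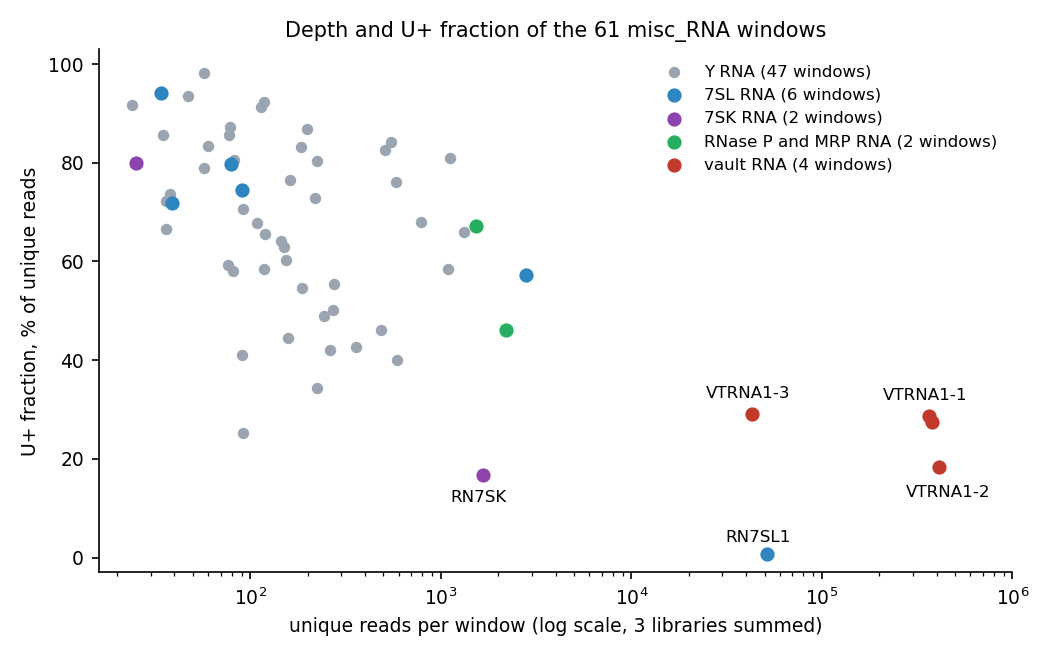
Unique reads (log axis) against the U+ fraction for the 61 misc_RNA windows, 1 point per window, coloured by kind of RNA. The vault RNA windows (red) lie at 42740 to 413061 unique reads and 18.3 to 29.1% U+, whereas the Y RNA windows (grey) had at most 1324 unique reads.

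Depth moved with this position and its part was not tested. The other misc_RNA windows had a median of 151 unique reads, against 42740 to 413061 in the vault RNA windows. Among the 8 other windows with at least 1000 unique reads, 2 lay below each vault RNA window, or 25%, against 3.51 to 5.26% among all 57. The vault RNAs were therefore set beside windows of any class with at least 10000 unique reads, of which there were 17 outside the vault RNAs, with a median U+ fraction of 42.7% and a range of 0.719 to 95.6%. The VTRNA1-2 window was above 3 of them, in RN7SL1, a cysteine tRNA gene and RNU2-2P. The VTRNA1-1 and VTRNA1-3 windows were above 5 and below 12. Windows of let-7f-1 and RNA5SP248, at 25275 and 16949 unique reads, had 92.5 and 95.6%.

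**Figure D4:**
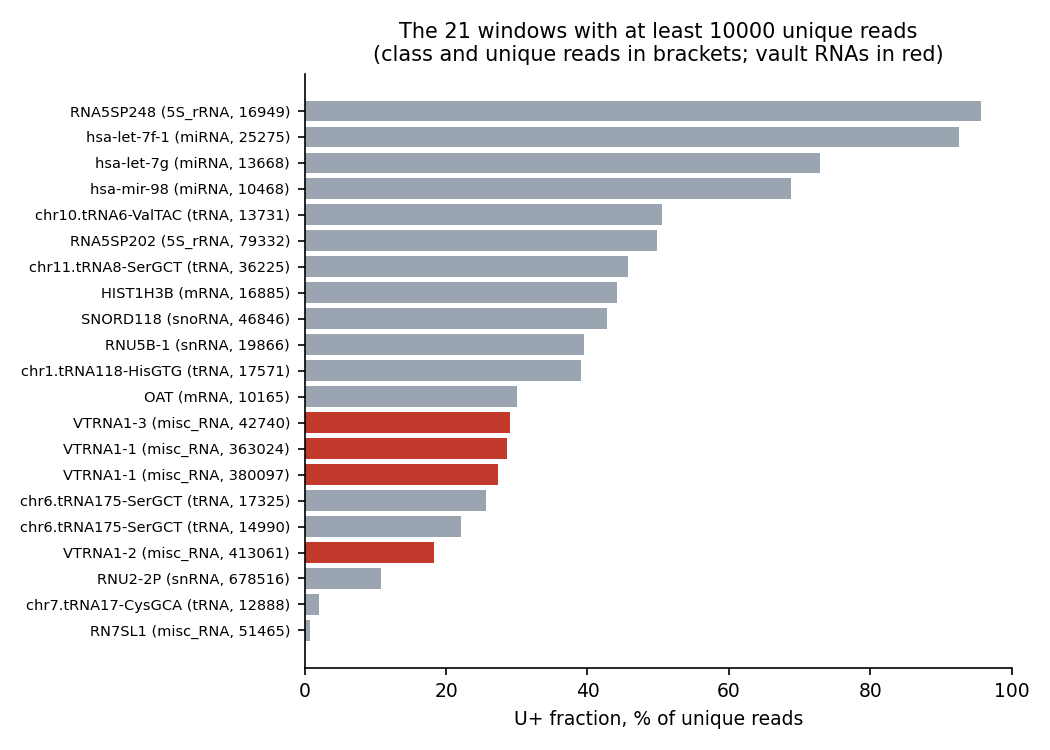
U+ fraction, in percent of unique reads, of the 21 windows with at least 10000 unique reads, in order, with the class and the unique reads in brackets. The 4 vault RNA windows (red) take places 4, 7, 8 and 9 from the lowest.

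VTRNA1-2 also stood apart under the rule by which the authors listed windows, which asks that a U+ frequency above 0.25 have a posterior of 0.95 or more (the product over libraries). Recomputed from the pooled counts, 3 of the 4 vault RNA windows passed it, and VTRNA1-2 did not. The share that passed was 96.8% among all listed windows and 94.7% among the other misc_RNA windows. A pooled fraction is the mean of the libraries weighted by their reads, so at least 1 of the 3 libraries had a U+ fraction of 18.3% or less in VTRNA1-2. On these counts such a library cannot reach a posterior of 0.95, and a product of posteriors cannot exceed its lowest factor. The VTRNA1-2 window thus did not meet the rule as the study describes it. It was nonetheless listed, as were 36 windows in all with a pooled fraction under 25%. Of these, 5 had at least 10000 unique reads. How the windows under 25% came to be listed is not known.

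The vault RNA genes shared features that the table does not give. Box B, searched as GTTCNANNC on the transcribed strand, was present in the 3 genes, 24 nt before the annotated end in each, and in 1 of 55 other misc_RNA genes (1.82%). Box A, searched by its consensus, started at position 11 in the 3 genes and matched 12 of 55 others (21.8%), and 0 of these had both. A run of at least 4 T in the last 10 or the next 10 nt was found in 2 of the 3 vault RNA genes and in 9 of the 55 others (16.4%). A match describes the letters only.

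Vault RNA genes were richer in GC than most of the class, at 52.5, 55.1 and 60.7% for VTRNA1-1, VTRNA1-2 and VTRNA1-3, against a median of 41.7% in the 55 others. The structures predicted by RNAfold paired the first with the last bases of each RNA, left the 4 last bases free, and paired 64.6, 60.7 and 60.7% of the bases. The predicted free energy was -35.6 kcal/mol per 100 nt for VTRNA1-1 and -39.2 for VTRNA1-2 and for VTRNA1-3. The median of the other genes was -24.7, and 4 of the 55 were lower than VTRNA1-1 and 3 lower than VTRNA1-2 or VTRNA1-3. VTRNA1-2 and VTRNA1-3 had the same predicted value with different predicted structures. A link between predicted folding and U+ fraction was not tested.

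Other vault RNA loci and the proteins around them were looked up in the table. VTRNA2-1, VTRNA3-1P and VTRNA2-2P had a listed window in 0 of 3 cases. The share of all small RNA loci with a window was not computed, so nothing is read from this count. The annotated VTRNA2-1 and VTRNA3-1P were 55.1 and 83.8% identical to VTRNA1-1, and VTRNA3-1P lacked a box B match. Of the 3 proteins of the vault particle, MVP, TEP1 and PARP4, 0 had a window. Of 8 proteins that bind or modify vault RNAs or U tails (SSB, which is La, NSUN2, SRSF2, DICER1, TUT1, TUT4, TUT7 and DIS3L2), 1 had a window. Of all annotated protein-coding genes, 1048 of 20175 had one (5.19%), and nothing is read from lists this short. The one found was SRSF2, a splicing factor, with 70 of 133 reads uridylated, or 52.6% (interval 44.2 to 60.9%), in an mRNA window. Genes without a listed window have no value here, and whether DIS3L2 bound their RNA was not tested.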

How the data were processed

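CLIP reads of 3 replicates had been mapped by the authors to GRCh37/hg19 with Segemehl, and unmapped reads were trimmed of 3′ T and mapped again. Protein-bound RNA had been cut with RNase T1. The deposited values are raw counts of unique and of uridylated reads per 50 nt window, summed over replicates, with no scaling. The table totals 2686158 unique reads and windows range from 7 to 678516, which sets the precision. Subread is listed in the submitters' processing notes without a role.

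Wilson and Clopper-Pearson intervals came from scipy 1.17.1. Newcombe intervals were computed from Wilson bounds, and intervals of ratios from Clopper-Pearson bounds. The Wilson and Newcombe intervals were tested on simulated data. Each gene counted once, by its window with the most U+ reads. Gene models were GENCODE 44 on GRCh37, and chromosome names matched. Starts were read as 1-based. Alignments used Biopython 1.88 and structures ViennaRNA 2.7.2. Box A, the repeat past VTRNA1-1, the uniqueness of stretches and the deep windows of any class were chosen after seeing the data. The members and lists were chosen with earlier results of these data known. Named were all VTRNA windows, the 3 deepest other misc_RNA windows, the 3 nearest to VTRNA1-1 in U+ fraction, and the fixed list with a window. Further windows were named after their values were seen. No replicate could be left out and no test was made, since the counts are pooled.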

Additional observations from a re-analysis of the deposited data

How the results depend on the processing

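No paired analysis was possible because the series has 1 group and its counts are pooled, and leaving out a replicate was not possible for the same reason. With the other window of VTRNA1-1, its difference from VTRNA1-2 moved to 10.4 percentage points and that of VTRNA1-3 from it to 0.41. Among misc_RNA windows with at least 1000 unique reads, 25% lay below each vault RNA window, and among windows of any class with at least 10000, a comparison chosen after seeing the data, 29.4% lay below the VTRNA1-1 and VTRNA1-3 windows and 17.6% below VTRNA1-2. Within the listed windows of the class, the share of vault RNAs in U+ reads was 96.0% with every window counted and 87.6% without VTRNA1-1. Their share in unique reads was 92.1%. Pooled over genes, the vault RNAs were 5.74 percentage points above the other misc_RNA and, without RN7SL1, a setting added after seeing the data, -35.6 points from them, so this direction turned. At a frequency of 0.5, 0 vault RNA windows passed the selection rule on pooled counts. If starts count from 0, the window ends lie at -8 and 42 nt from the 3′ end of VTRNA1-1, 2 nt past that of VTRNA1-2 and 19 nt past that of VTRNA1-3. Exact intervals, log odds ratios, a minimum of 100 reads, 1 window per gene, all windows as background and a posterior of 0.99 changed no reading. A frequency of 0.5 left 1098 of the 1484 windows of the table and 41 of the 54 of the other misc_RNA.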
